A study of Xenopus laevis with 3 samples.

Results

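On a Xenopus laevis cDNA array, 203 probes had a signal that was higher in the anterior than in the posterior endoderm on both arrays of stage 46, relative to each array's median. At stages 30 and 39 they stayed under a lower limit, given below. For each array the background-subtracted median signal of the anterior channel was divided by that of the posterior channel, put on the log2 scale and centred on the median of the array. A probe was a member when this log2 ratio was over 0.7 on both stage 46 arrays and under 0.4 on each of the 4 earlier arrays. Of 21504 spots, 12680 had both differences over 50 intensity units and no negative flag on all 6 arrays and could be members, and the 203 members are 1.6% of these. The measured ratios chose the members on all 6 arrays, so ratios are given below as a description with no test. A further 199 probes were over 0.7 at stage 46 but at or over 0.4 on an earlier array, and 7 met the limits but carried a name that the rule leaves out (coagulation factor XIII B, galectin-3, endoplasmin and pyruvate carboxylase).

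The study took endoderm from Xenopus laevis, the African clawed frog, at 3 developmental stages and cut it into an anterior region, which gives rise to the liver, pancreas, stomach, lung and duodenum, and a posterior region, which gives rise to the intestine. RNA of the anterior endoderm was labelled with Cy5 and RNA of the posterior endoderm of the same stage with Cy3, and the pair was hybridised to a spotted cDNA array, on 2 arrays (A and B) per stage. The labels name no strain, genetic change or treatment, and do not say whether arrays A and B came from separate dissections, so the spread between them may be technical. No array had the dyes exchanged, so an effect of the region and one of the dye cannot be told apart. In such dissected tissue, fewer cells of a type and less RNA per cell cannot be told apart either.

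The arrays of a stage correlated across probes in their log2 ratio with Pearson's r of 0.828 at stage 30, 0.952 at stage 39 and 0.932 at stage 46. The median foreground intensity of an array was 607 to 2988.5 in the anterior channel and 807 to 3037 in the posterior channel, brightest on array A of stage 30, and 14.0% to 21.0% of the spots were not found by the scanner software. Scanner gain was set per slide, so a difference in level between stages is relative to the bulk of the probes after normalisation. Of the 5 lists of markers of other tissues, red blood cells, epidermis and fibroblast or cartilage hold 0 members among 17, 26 and 28 probes that could be members, muscle holds 1 among 56 and neural tissue 1 among 34. At the share of 1.6% over all usable probes, lists of this size would hold few members or none. The words of the muscle list did not match the names of the creatine kinase and myosin regulatory light chain members described below. The median log2 ratio of these lists at stage 46 was -0.30 for red blood cells, -0.22 for epidermis, 0.19 for fibroblast and cartilage, -0.07 for muscle and 0.01 for neural tissue. Their part in the members' ratios was not tested. Saturated pixels, which limit a printed signal and ratio, were recorded on at least 1 array for 33 members (16.3%), against 10.8% of all usable probes. They reached 28% of pixels on XL093d18, 27% on XL093h10, 17% on XL067c13 and 13% on XL072o15 and XL074l05, and their part in these values was not tested.

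Several of the members belong to the machinery by which a cell makes proteins for export. A nascent secreted protein is recognised by the signal recognition particle, threaded through the translocon into the endoplasmic reticulum, and folded there with the help of chaperones such as BiP and of protein disulfide isomerases. X-box binding protein 1 is a transcription factor of the unfolded protein response, and in mammals it is needed for the large secretory apparatus of exocrine pancreas and plasma cells. Carbonic anhydrases interconvert carbon dioxide and bicarbonate, which acid- and bicarbonate-secreting epithelia such as stomach and pancreatic ducts use. In the frog larva, the liver, pancreas and stomach take shape in the anterior endoderm over the stages studied.

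The names are best-match annotations of the clones, many cut short in the deposited files, and 54 members have no match and 38 have a name that says nothing of function. The other 111 members carry 73 distinct names. Across the 203 members the mean log2 ratio of both stage 46 arrays had a median of 0.97, which ranged from 0.71 to 2.91. It exceeded 1 on both arrays for 77 members and 2 on both for 7. Arrays A and B of stage 46 differed by a median of 0.11 in a member's ratio and by at most 0.66, against a median of 0.09 over all usable probes. Of the 203 members 153 were higher on array B, where 47.3% of all usable probes were. The probes nearest to the limit had almost the same values on either side of it. Just inside, by the lower of both arrays, were XL090a13 at 0.701, XL090m14 (hXBP1) at 0.702, XL069j15 at 0.702, XL093b04 (LBP-32) at 0.705 and XL098j19 at 0.706. Just outside were XL096i24 (CD82) at 0.698, XL057k15 at 0.696, XL085b04 at 0.693, XL106o15 at 0.692 and XL058l18, a probe for the 72 kDa signal recognition particle protein, at 0.692.

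At the earlier stages the members were not all evenly spread between the regions. The median log2 ratio was -0.19 at stage 30 (range -1.82 to 0.37) and -0.26 at stage 39 (range -1.86 to 0.36), so the typical member lay slightly to the posterior side of the array median. On array A of stage 30 that median was itself 0.32 before centring, so a value below 0 there can go with a brighter anterior channel. On all 4 earlier arrays 96 members (47.3%) were below 0, against 18.5% of all usable probes, and 91 (44.8%) lay within 0.4 of 0, against 31.1%. On both stage 39 arrays 14 members (6.90%) were below -1, over 2-fold to the posterior side of the array median, which is near the 5.31% of all usable probes. The upper limit of the rule removes probes that were anterior early, so a lean to negative values is part of how the members were chosen.

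Probes annotated as carbonic anhydrase had the 8 highest ratios among the members, at 2.21 to 2.91. Of 15 such probes with usable signal 9 were members, with a mean log2 ratio at stage 46 of 1.39 to 2.91 and a median of 2.59. At stages 30 and 39 the median of the 9 was -0.37 at each. The annotations "carbonate dehydratase" and "carbonic anhy", the latter cut short, do not say which isoform is meant. Of the other 6 probes, 5 were annotated as isoform VB, a mitochondrial enzyme in mammals, and lay between -0.15 and 0.26 at stage 46, and 1 annotated as isoform XIV was at -0.47. No usable carbonic anhydrase probe lay between 0.26 and 1.39.

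The highest of them, XL093m10, had log2 ratios of -0.74 and -0.55 at stage 30, -0.59 and -0.60 at stage 39, and 2.83 and 3.0 at stage 46. The mean of the last 2 corresponds to 7.54-fold relative to the array medians, which is more than the fold between the raw signals. The background-subtracted signals behind this were 480 and 487 in the anterior and 696 and 724 in the posterior channel at stage 39, and 4533 and 4987 against 773 and 759 at stage 46. At stage 30 they were 6381 and 1657 in the anterior against 8510 and 2293 in the posterior channel. Before normalisation between arrays, the posterior signal at stage 46 was thus near that at stage 39 and below that at stage 30, and the anterior signal was several times that at stage 39. XL106n17 had log2 ratios of -0.35 and -0.38 at stage 30, -0.15 and -0.12 at stage 39, and 2.46 and 2.37 at stage 46. XL064e18, the lowest of the 9, had -0.53 and -0.52, then -1.30 and -0.89, then 1.34 and 1.44. In each of these 3 probes the stage 46 arrays lay above all 4 earlier arrays without overlap, as the rule requires.

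To see which region's level differed between stages, the log2 mean of both channels was normalised between arrays and each channel was recovered from it and the centred ratio. For the carbonic anhydrases, the anterior level was a median of 3.39 higher at stage 46 than at stage 39 on the log2 scale and the posterior level a median of 0.39 higher. The anterior level was higher in 9 of 9 and the posterior level in 7 of 9. Between stages 30 and 39 both levels were lower, by a median of -0.58 in the anterior and -0.37 in the posterior channel. The 9 probes have similar annotations and may share transcripts, so they are not 9 separate observations.

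**Figure D1:**
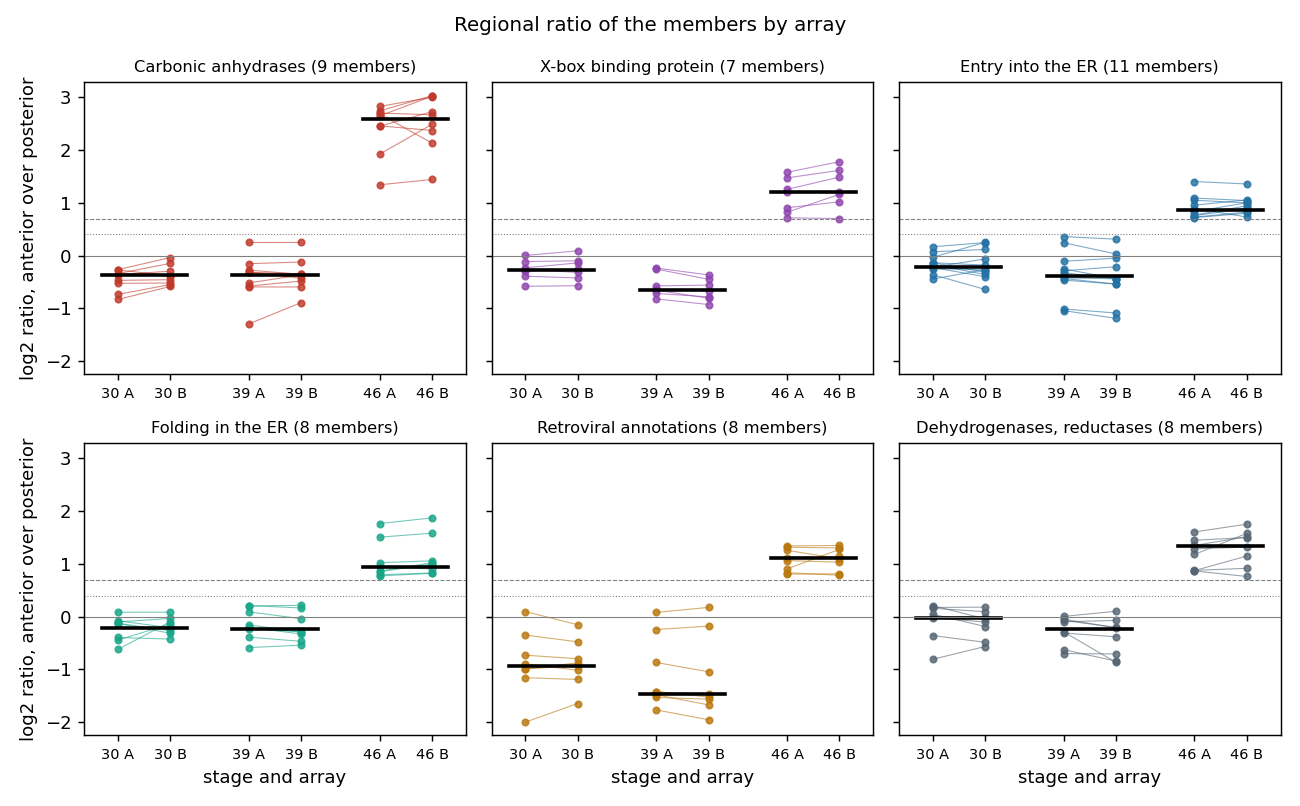
Log2 ratio of anterior over posterior signal, centred on each array's median, for 6 groups of members on the 6 arrays (stages 30, 39 and 46, arrays A and B). Joined points are a probe on both arrays of a stage and the black bar is the group's median for the stage, with the member limits of 0.7 (dashed) and 0.4 (dotted). The 9 carbonic anhydrase probes reach a median of 2.59 at stage 46, and the 8 retroviral probes start from a median of -1.46 at stage 39.

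The mean level of both channels was also tested between stages with limma, across all probes above background, with Benjamini-Hochberg adjustment over all of them. This mean uses the same channels as the ratio, and a brighter anterior channel raises both, so a high mean at stage 46 is not independent of the choice of members. Of 203 members 199 were tested. Of the 8 carbonic anhydrase probes tested, 3 rose between stages 39 and 46, against 0.812% of all tested probes. XL106n17 rose by 2.22 on the log2 scale (SE 0.29, adjusted p = 0.0314, 2 arrays per stage), XL093m10 by 2.05 (SE 0.34, adjusted p = 0.0493) and XL092g24 by 1.47 (SE 0.23, adjusted p = 0.045). Between stages 30 and 46, XL106n17 was again the carbonic anhydrase called, at 1.91 (SE 0.30, adjusted p = 0.0178). Of 6 processing alternatives, XL106n17 passed in 6 in both comparisons, XL092g24 in 5 and XL093m10 in 3. These 4 calls were lost when either array of stage 39 or of stage 46 was left out, which leaves a stage with a single array.

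X-box binding protein had 10 probes with usable signal, of which 7 were members, with log2 ratios at stage 46 between 0.71 and 1.68 and a median of 1.20. Their medians were -0.28 at stage 30 and -0.65 at stage 39. XL105p24 had log2 ratios of 0.00 and 0.09 at stage 30, -0.26 and -0.45 at stage 39, and 1.58 and 1.78 at stage 46. XL100d12 had -0.11 and -0.10, then -0.24 and -0.37, then 1.47 and 1.61. Of the 3 other probes of this annotation, 2 were above 0 on both stage 46 arrays, and the 3 ranged from -0.03 to 0.95, so the probes of this annotation differed among themselves.

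After normalisation, the X-box binding protein members had a lower posterior level at stage 46 than at stage 39 as well as a higher anterior one. From stage 39 to stage 46 the anterior level was higher in 7 of 7 members, by a median of 0.72 on the log2 scale, and the posterior level was lower in 7 of 7, with a median of -1.03. For XL105p24 the differences were 0.52 and -1.53, and for XL100d12 they were 0.92 and -0.94. Before normalisation, the anterior signal of XL105p24 was 6350 and 5150 at stage 39 and 4567 and 5831 at stage 46. Its posterior signal was 7289 and 6917, then 1851 and 2068. The limits of the rule favour both directions, so these counts describe the members and are not a test. The mean of both channels passed the test with limma in 0 of 7 members between any of the stages, and 0 had an unadjusted p under 0.05. Over all tested probes, 2179 of 12677 had such a p between stages 39 and 46.

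Probes of the entry into the endoplasmic reticulum gave 11 members of 19, with a median log2 ratio of 0.87 at stage 46. They comprise 3 for the alpha subunit of the translocon-associated protein, which sits beside the translocon, 4 for the 72 kDa protein of the signal recognition particle, 2 annotated "ribosome as", which is cut short, 1 for a signal peptidase subunit and 1 for a protein translocation component. The translocon-associated protein probe XL101a08 had log2 ratios of -0.14 and -0.18 at stage 30, -0.29 and -0.21 at stage 39, and 1.40 and 1.36 at stage 46. The signal recognition particle probe XL087i17 had -0.14 and -0.31, then -0.43 and -0.54, then 1.05 and 1.00. Arrays of a stage differed little in both, and the stages before 46 lay slightly below 0. The 8 other probes of these annotations were all above 0 on both stage 46 arrays, at 0.32 to 1.40, and 4 of them exceeded 0.4 on an earlier array. Probes named SEC63, SEC61 gamma or TRAP-like protein fell outside the words of this group. They were not members and ranged from -0.18 to 1.12 at stage 46. The words that define such groups were chosen after values were seen, so counts like 11 of 19 cannot be compared with the 1.6% of all usable probes.

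Probes of folding and assembly gave 8 members of 14, with a median log2 ratio of 0.93 at stage 46. BiP, the main chaperone of the endoplasmic reticulum, had log2 ratios on XL077b02 of -0.40 and -0.43 at stage 30, -0.20 and -0.33 at stage 39, and 1.51 and 1.58 at stage 46. Protein disulfide isomerase A6, which forms disulfide bonds, was the highest, on XL097h15, with 0.08 and 0.08, then -0.15 and -0.30, then 1.76 and 1.87. Protein disulfide isomerase A3 and the 150 kDa oxygen-regulated protein, a chaperone, had 2 members each at 0.81 to 0.94. The 6 other probes of these annotations lay between 0.02 and 0.60 at stage 46, all above 0 on both arrays. Outside the words of this group, a further protein disulfide isomerase probe, XL098c09, was at 0.64 at stage 46. The calnexin probes, also outside it, ranged from -0.14 to 0.40, and none was a member.

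Taking X-box binding protein with both endoplasmic reticulum groups, 26 members, the posterior level was lower at stage 46 than at stage 39 in 26 of 26 and the anterior level was higher in 18, or in 17 with median scaling and 20 with cyclic loess, which left the posterior count at 26. The median difference was 0.33 in the anterior and -0.99 in the posterior channel, and in only 5 of the 26 was the anterior difference the larger in size. For XL097h15 the anterior level differed by -0.17 and the posterior by -2.21, and for BiP by 0.66 and -1.18. Between stages 30 and 39 the posterior level was higher in 26 of 26, by a median of 0.73, and the anterior level in 21 of 26, by a median of 0.41, while with median scaling or cyclic loess the posterior count was 24 and the anterior one 20 or 18. The anterior level was higher at stage 46 than at stage 30 in 25 of 26, or in 23 and 24 with the other scalings. The members' ratio limits favour a lower posterior level at stage 46, so these counts describe the members and are not a test. Several of the 26 have the same annotation, 7 of them X-box binding protein, and may share transcripts, so they are not 26 separate observations. Over all 203 members, the posterior level was lower at stage 46 than at stage 39 in 136 and the anterior level higher in 174. From stage 30 to 39 the posterior level was higher in 106 of the 203 and the anterior in 100. From stage 30 to 46 the anterior level was higher in 178. Over 11703 usable probes in the fit, the median difference between stages 39 and 46 was 0.04 anterior and -0.01 posterior. Of these 11703, 1805 had a higher anterior and a lower posterior level at stage 46, 4367 had both higher, 4183 both lower and 1348 the reverse. In the same order, these counts were 1571, 4656, 3635 and 1841 from stage 30 to 39. From stage 30 to 46 they were 1292, 5034, 4064 and 1313. The carbonic anhydrases, chosen by the same limits, had a higher posterior level at stage 46 than at stage 39 in 7 of 9.

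**Figure D2:**
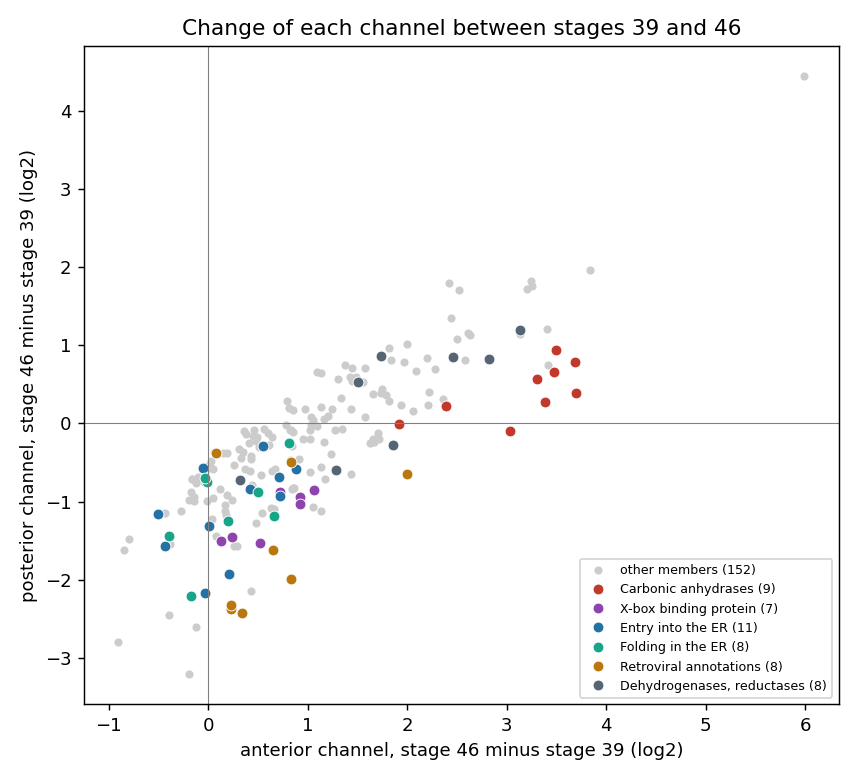
Log2 difference between stages 46 and 39 in the anterior level (horizontal axis) and in the posterior level (vertical axis) for the 203 members, with the groups in colour. The X-box binding protein and endoplasmic reticulum probes lie below 0 on the posterior axis in 26 of 26 cases, against 136 of all 203 members. Of 11703 usable probes in the fit, not drawn, 1805 had a lower posterior with a higher anterior level and 4183 had both lower. The 9 carbonic anhydrase probes lie far to the right with a median anterior difference of 3.39.

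In the mean of both channels, 0 of these 26 members passed the limma test between stages 39 and 46, with 0 higher and 6 lower at an unadjusted p under 0.05. Over all tested probes, 2179 of 12677 had such a p in either direction. Between stages 30 and 39, the 150 kDa oxygen-regulated protein on XL109i06 rose by 1.33 (SE 0.23, adjusted p = 0.0374) and protein disulfide isomerase A3 on XL099a24 by 1.42 (SE 0.24, adjusted p = 0.0368), where 0.899% of all tested probes rose. BiP differed by 1.14 without passing (adjusted p = 0.14). XL109i06 was also higher at stage 46 than at stage 30, by 1.14 (SE 0.23, adjusted p = 0.0358), where 3.63% of all tested probes were. The call of XL099a24 and the later one of XL109i06 each passed in 5 of 6 processing alternatives. These 3 calls were lost without array B of stage 30 and without either array of stage 39 or 46.

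A list of 100 probes with names of the secretory pathway, which overlaps with these annotations, holds 16 members (16.0%, against 1.6% of all usable probes). Its 100 probes had a median log2 ratio of -0.10 at stage 30, -0.16 at stage 39 and 0.29 at stage 46, against a median of 0.00 over all usable probes at each stage. The list was written with earlier results of these arrays known, so its count is a description. Of the vesicle transport annotations 4 of 23 were members, among them a pair of probes for a COP-coated vesicle membrane protein at 0.92 and 0.79 and p24 delta1 at 0.77, both parts of traffic between the endoplasmic reticulum and the Golgi. The 19 other probes of these annotations ranged from -0.44 to 1.20 at stage 46, both ends being p24 delta1 probes, and 11 were above 0 on both arrays. The 5 other probes for the COP-coated protein lay between 0.05 and 0.71.

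**Figure D3:**
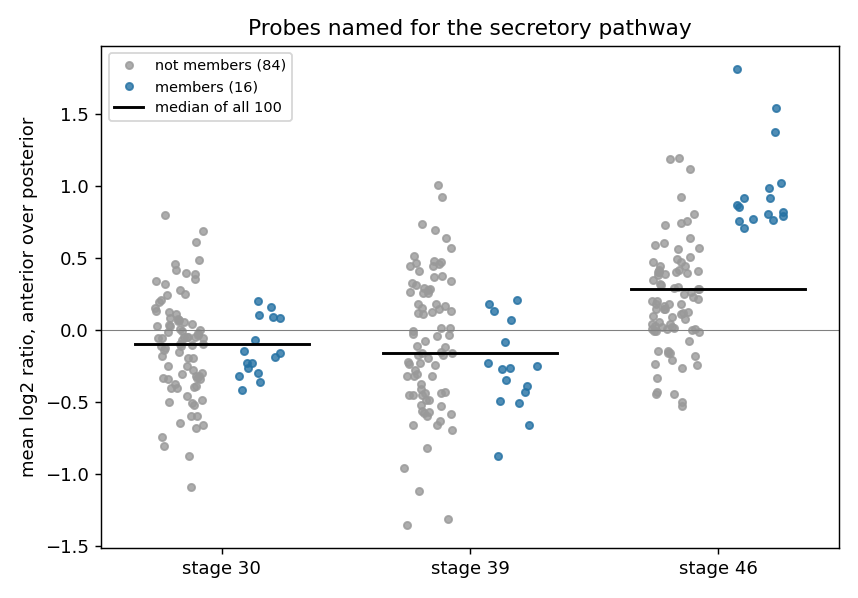
Mean log2 ratio of anterior over posterior signal at stages 30, 39 and 46 for 100 probes with secretory pathway names, 16 members and 84 other probes, with a bar at the median of all 100 (-0.10, -0.16 and 0.29). The members were chosen for these ratios, and the other 84 probes show the spread of the rest of the list at the same stages.

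Other ion transport and enzyme annotations stood beside these. The pump H,K-ATPase exchanges protons for potassium in the stomach and other epithelia, and the match is to a toad protein whose organ the name does not give. It had log2 ratios on XL067c13 of -0.57 and -0.70 at stage 30, -1.63 and -1.59 at stage 39, and 0.93 and 1.31 at stage 46. Its mean level fell by 5.45 on the log2 scale from stage 30 to stage 39 (SE 0.37, adjusted p = 0.00454) and was lower by 4.76 at stage 46 than at stage 30 (log2 difference -4.76, SE 0.37, adjusted p = 0.00425), where 3.11% of all tested probes were lower. The anterior excess at stage 46 was one of dim signals, at 400 and 492 in the anterior against 255 and 241 in the posterior channel. The call between stages 30 and 46 was kept without each array in turn, and that between stages 30 and 39 was lost without either array of stage 39. The 3 other usable probes annotated as H,K-ATPase were not members and lay between 0.35 and 0.67 at stage 46. With the 9 carbonic anhydrases XL067c13 makes the 10 members among 62 probes of the list of ion pumps and solute transport (16.1%, against 1.6% of all usable probes). That list was written with earlier results known, so its count is a description.

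Words for dehydrogenases and reductases of small molecules matched 12 probe names, of which 2 are glycerol phosphate acyltransferases, and 8 of the 12 were members, with a median log2 ratio of 1.34 at stage 46, -0.24 at stage 39 and -0.03 at stage 30. Carbonyl reductase, an NADPH-dependent enzyme that reduces carbonyl compounds, had 3 members and estradiol 17 beta-dehydrogenase, a steroid-converting enzyme, 2. The carbonyl reductase probe XL071l21 had log2 ratios of -0.81 and -0.57, then -0.70 and -0.71, then 1.29 and 1.32. Its mean level rose by 2.16 between stages 39 and 46 (SE 0.28, adjusted p = 0.0303) and by 1.51 between stages 30 and 46 (SE 0.28, adjusted p = 0.0304). The anterior level of all 8 was higher at stage 46 than at stage 39, by a median of 1.80, and the posterior level was higher in 5 of 8, by a median of 0.68. XL109c04, the second carbonyl reductase probe, reached 1.45 and 1.5 at stage 46, and the third, XL099j05, 1.6 and 1.75. The estradiol dehydrogenase probe XL072o15 was at 1.35 and 1.51. The 4 probes of this group that were not members ranged from -1.60 to 0.56 at stage 46, and 1 was above 0 on both arrays. Among the probes for glycerol-3-phosphate dehydrogenase, XL102l16 was a member at 0.90, while XL093l03 was at -1.60. Both calls of XL071l21 were lost without either array of stage 39 or 46, and that against stage 30 also without array A of stage 30.

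GDP-mannose 4,6-dehydratase, which makes the precursor of GDP-fucose, had 2 members. XL080d14 had log2 ratios of -0.57 and -0.38 at stage 30, -0.26 and -0.17 at stage 39, and 1.54 and 1.56 at stage 46. Its mean level fell by 1.90 between stages 30 and 39 (SE 0.29, adjusted p = 0.0302) and rose by 2.50 between stages 39 and 46 (SE 0.29, adjusted p = 0.0258). The other probe, XL108f14, rose by 2.53 between stages 39 and 46 (SE 0.41, adjusted p = 0.0479). Of 3 probes for inosine monophosphate dehydrogenase, of guanine nucleotide synthesis, 2 were members, at 0.83 and 0.77 at stage 46, and XL067i09 was at 0.32. The call of XL108f14 passed in 4 of 6 processing alternatives. The 3 calls were lost without either array of stage 39 and without either array of stage 46, and the fall of XL080d14 also without array B of stage 30.

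The 3 IgG Fc-binding members and both tested lipid annotations fell between stages 30 and 39. The 3 members annotated as IgG Fc-binding protein, a mucin-like protein secreted by the human intestine, had log2 ratios at stage 46 of 0.93 to 1.38, and the other probe of this annotation was at 0.50. XL100g24 had log2 ratios of -0.22 and -0.25, then -0.94 and -1.09, then 1.18 and 1.57. Its mean level fell by 3.91 between stages 30 and 39 (SE 0.30, adjusted p = 0.00566), where 1.52% of all tested probes fell, and rose by 2.31 between stages 39 and 46 (SE 0.29, adjusted p = 0.0303), to a level at stage 46 that was still lower than at stage 30 (log2 difference -1.60, SE 0.30, adjusted p = 0.0301). The other 2 also fell between stages 30 and 39, with log2 differences of -3.49 for XL093d18 (SE 0.43, adjusted p = 0.0164) and -2.0 for XL101g24 (SE 0.27, adjusted p = 0.0206). Both regions took part, with medians of -3.83 in the anterior and -3.15 in the posterior level. Lipin 2 on XL094d18, a phosphatidate phosphatase in mammals, had a log2 difference of -2.94 between these stages (SE 0.39, adjusted p = 0.0187). The other lipin 2 probe, XL068k19, was at -0.12 at stage 46, against 1.20 for XL094d18. A further fall was that of the lipid transfer protein annotation pctp-L on XL108e24 (log2 difference -1.41, SE 0.24, adjusted p = 0.0377). The 4 other probes of this annotation lay between 0.44 and 1.12 in log2 ratio at stage 46, against 1.76 for XL108e24. Hydroxymethylglutaryl-CoA reductase, the rate-limiting enzyme of sterol synthesis, had log2 ratios of 1.00 and 1.6 at stage 46 on XL082k14, which did not exceed 2 background SDs on at least 2 arrays and was not tested, and the other probe of this name, XL085a04, had 0.87 and 1.19 at stage 46 and was over 0.4 at stage 39. All of these calls between stages 30 and 39 were lost without either array of stage 39, that of XL108e24 and both later calls of XL100g24 also without either array of stage 46, and the latter 2 without either array of stage 39 as well.

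Retroviral annotations gave 8 members of 17, and they had the strongest posterior excess before stage 46. Their median log2 ratio was -0.94 at stage 30, -1.46 at stage 39 and 1.11 at stage 46. XL093h10, annotated as a gag-pol gene, had -0.99 and -0.88 at stage 30, -1.42 and -1.52 at stage 39, and 1.06 and 1.03 at stage 46. XL102f05, annotated as a polymerase, had -0.89 and -1.02, then -1.53 and -1.57, then 1.26 and 1.10. XL074l05 had the lowest early values, -2.0 and -1.65, then -1.77 and -1.96, then 0.83 and 0.78. The signal of XL093h10 at stage 39 was 14956 and 12262 in the anterior and 38472 and 34684 in the posterior channel, and at stage 46 it was 9708 and 10076 against 5631 and 6001. The brighter region had changed from posterior to anterior.

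From stage 39 to stage 46 the posterior level of the retroviral members was lower in 8 of 8, with a median log2 difference of -1.81, and the anterior level was higher in 8 of 8 (7 with cyclic loess), by a median of 0.49. Of the 8, 0 passed the test of the mean level with limma in any comparison. Between stages 39 and 46, 3 were lower and 0 higher at an unadjusted p under 0.05, against 2179 of 12677 tested probes in either direction. The lowest adjusted p between stages 39 and 46 among the probes named here was 0.0862, for XL093h10 with a log2 difference of -1.05. The 8 have similar annotations and may share transcripts, so they are not 8 separate observations. The probe with the least posterior excess at stage 30 was XL102b06, annotated as an envelope protein, with 0.10 and -0.15, then -0.25 and -0.18, then 0.90 and 1.27. The 9 other probes of such annotations ranged from -0.35 to 1.29 at stage 46, with 5 above 0 on both arrays and 4 over 0.4 on an earlier array.

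Probes with titin, creatine kinase or myosin in the name, grouped after values were seen and including tropomyosins, nonmuscle and unconventional myosins, gave 4 members of 49, against a median of -0.12 at stage 46 for the other 45, of which 12 were above 0 on both arrays. A creatine kinase probe, XL087m03, for the enzyme that buffers ATP in muscle and brain, had log2 ratios of 0.25 and 0.17 at stage 30, -0.27 and -0.29 at stage 39, and 1.16 and 1.26 at stage 46. Its mean level rose by 3.45 between stages 30 and 46 (SE 0.40, adjusted p = 0.00876) and by 2.46 between stages 39 and 46 (SE 0.40, adjusted p = 0.0479), and the other creatine kinase member, XL081p09, rose by 2.25 (SE 0.30, adjusted p = 0.0118) and by 1.88 (SE 0.30, adjusted p = 0.045). Both rises against stage 39 passed in 3 of 6 processing alternatives. The name does not say whether the muscle or another isozyme is meant. The third probe of this name, XL080p09, had 1.21 and 1.30 at stage 46 but 0.60 and 0.47 at stage 30, and the probe for ubiquitous creatine kinase, XL101k05, was at -0.02 at stage 46. A myosin regulatory light chain probe, XL091l20, had log2 ratios of -0.13 and 0.23, then -1.64 and -1.68, then 1.31 and 1.78, and its mean level rose by 2.75 between stages 30 and 39 (SE 0.37, adjusted p = 0.0209). The other probe of this name, XL085m11, had 0.79 and 1.23 at stage 46 but 0.29 and 0.47 at stage 30, and was not a member. The creatine kinase calls were lost without either stage 46 array, those against stage 39 also without either stage 39 array, and the myosin call without array B of stage 30 or either stage 39 array.

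Complement C3, a plasma protein that the liver secretes, had 2 members, both matched to the chicken protein. The 5 probes annotated as Xenopus laevis C3 were not members and lay between -0.48 and 0.24 at stage 46, with XL073e22 and XL109m09 below 0 on both arrays, so probes named C3 differed among themselves. Of 3 probes for pentraxin, another plasma protein, 1 was a member at 0.79, and the other 2, XL091h08 at 1.17 and XL099b04 at 0.81, were over 0.4 at stage 39. The C3 probe XL106m16 had log2 ratios of 0.11 and 0.14, then -0.43 and -0.55, then 1.28 and 1.58. Its mean level did not pass the test in any comparison. The wider list of liver plasma proteins held 3 members among 45 probes (6.67%, against 1.6% of all usable probes) and had a median log2 ratio of 0.17 at stage 46. Among the single annotations, annexin I on XL086i02 had log2 ratios of -0.87 and -0.86 at stage 30, 0.37 and 0.31 at stage 39, and 1.78 and 1.96 at stage 46, and its mean level fell by 2.49 between stages 30 and 39 (SE 0.46, adjusted p = 0.0459). The 2 other annexin I probes were not members and were at 0.37 and 1.70 at stage 46. HSCARG on XL107c15, a redox sensor in human cells, had a log2 ratio of 1.64 and 1.98 at stage 46 and its mean level rose by 2.08 between stages 39 and 46 (SE 0.34, adjusted p = 0.0487), which passed in 4 of 6 processing alternatives. Xbub3 on XL090a14, a mitotic checkpoint protein, had 1.12 and 1.22 at stage 46, while the 3 other probes of this name lay between -0.25 and -0.12, and its mean level rose by 1.49 between stages 30 and 46 (SE 0.23, adjusted p = 0.0178). The annexin call was lost without array B of stage 30 or either array of stage 39, and the HSCARG and Xbub3 calls without either array of stage 39 or 46.

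The remaining names among those with the highest ratios at stage 46 did not pass the test of the mean level in any comparison. XL060c23, with a name cut to "secreted f", had log2 ratios of 0.01 and 0.27 at stage 30, -0.39 and -0.29 at stage 39, and 1.70 and 1.90 at stage 46. A synaptic vesicle GTP-binding protein annotation, XL057f04, was posterior at stage 30, with -0.64 and -0.77, and anterior at stage 46, with 0.96 and 1.55. The tpr protein, a component of the nuclear pore basket, had -0.78 and -0.52 at stage 30 and 1.02 and 1.49 at stage 46 on XL078j09. The mean log2 ratio at stage 46 was 1.20 for the intermediate filament protein ON3 on XL086j19, 1.16 for RAL-1 on XL097h23, 1.12 for a nucleoporin annotation on XL080d16, 1.10 for XL070p22 ("embryonic s") and 1.09 for XL070d08 (CG3267, a fly gene). The 2 other ON3 probes were at 0.21 and 0.60, and the other probe of the annotation of XL070p22 was at -0.22.

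Over all 199 tested members, 20 were higher and 7 lower in mean level at stage 46 than at stage 30, where 3.63% and 3.11% of all tested probes were. Between stages 39 and 46, 17 were higher and 0 lower with limma, where 0.812% and 0.45% of all tested probes were. In either direction, 78 of the 199 had an unadjusted p under 0.05 between these stages, against 2179 of all 12677 tested probes. Between stages 30 and 39, 5 were higher and 12 lower, where 0.899% and 1.52% were. The counts rest on few arrays: without array A of stage 46 they were 1 higher and 2 lower against stage 30, and without either stage 39 array no member was called between stages 30 and 39 or between stages 39 and 46. Of the 27 members called between stages 30 and 46, 3 kept their call without each array in turn, which were XL067c13 (H,K-ATPase), XL096i16 (no match) and XL0c2c01 (annotated "XA6-1").

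XL0c2c01 had the largest rise between stages 30 and 46 among the members that passed the test. Control spots were recognised in part as identifiers beginning XL0c2 with names such as phage or GFP. XL0c2c01 shares this prefix and was kept because its name is none of these. Its log2 ratios were -0.23 and -0.07 at stage 30, -0.76 and -0.32 at stage 39, and 1.49 and 1.49 at stage 46. Its signal at stage 39 was 89 and 154 in the anterior and 145 and 189 in the posterior channel, and at stage 46 it was 7958 and 10355 against 3430 and 4485. The mean level was higher by 3.98 at stage 46 than at stage 30 (SE 0.27, adjusted p = 0.00425) and by 5.22 than at stage 39 (SE 0.27, adjusted p = 0.0045), the latter lost without either array of stage 39. The level was higher in both regions, by 5.99 in the anterior and 4.45 in the posterior channel against stage 39. The next largest rises of this kind were those of XL087m03 (creatine kinase), XL067b21 (no match; 3.05, SE 0.40, adjusted p = 0.0104), XL101m10 (no match; 2.49, SE 0.34, adjusted p = 0.0125) and XL081p09. Among the members that passed the test as lower, the largest falls after H,K-ATPase were those of XL096i16 (log2 difference -3.24, SE 0.30, adjusted p = 0.00563), XL101d24 (no match; -1.70, SE 0.26, adjusted p = 0.0173), XL100g24 and XL100d24, annotated as desmoyokin, a large epithelial phosphoprotein (-1.56, SE 0.28, adjusted p = 0.0256). Of these, XL067b21, XL101m10 and XL101d24 lost their call without either array of stage 46, and XL100d24 also without either array of stage 39. The 10 other usable probes annotated as desmoyokin ranged from -1.02 to 0.67 in log2 ratio at stage 46, against 0.81 for XL100d24, and none was a member.

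**Figure D4:**
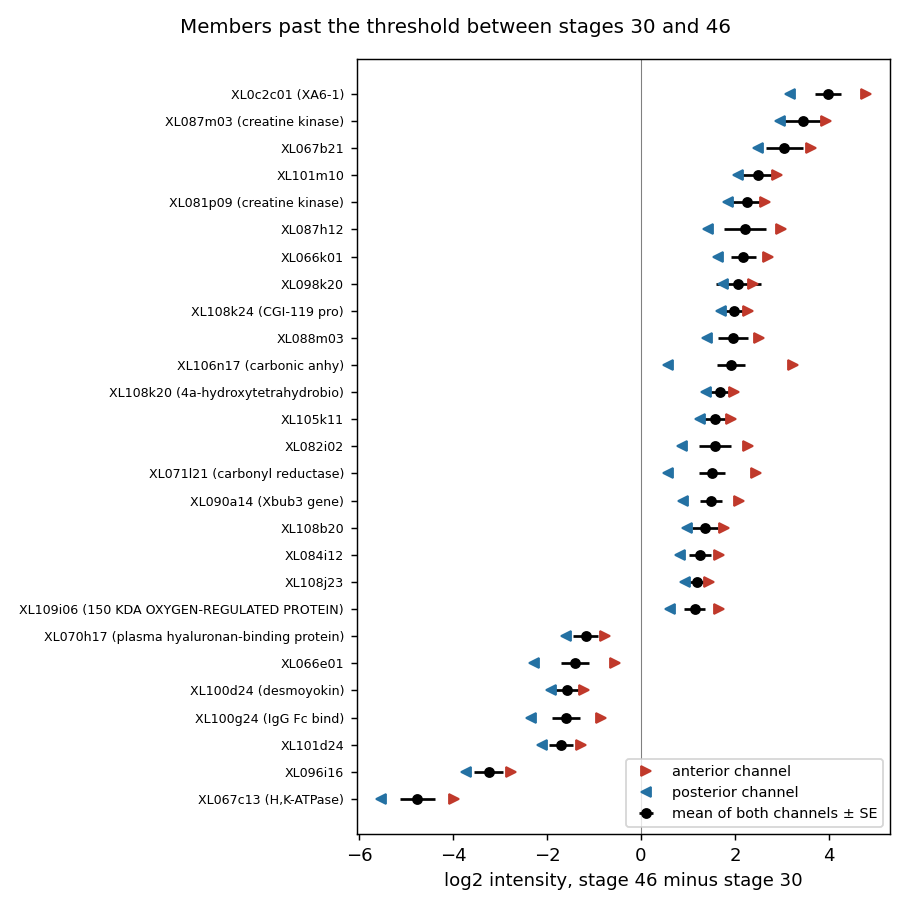
Log2 difference between stages 46 and 30 for the 27 members whose mean level passed the test (20 higher, 7 lower), with the mean of both channels and its standard error in black and the anterior (red) and posterior (blue) levels beside it. XL0c2c01 lies at 3.98 and H,K-ATPase at -4.76.

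Other probes of the annotations that members carry were also more often on the anterior side at stage 46. There were 143 such probes of 52 annotations, and 101 of them (70.6%) were above 0 on both stage 46 arrays, against 44.0% of all usable probes. Of the 143, 17 were over 0.7 on both. These probes were not members, but some may share a transcript with a member, so they are not independent of it. The lists of amino acid metabolism, digestive enzymes, pancreas hormones and translation hold 0 members, among 53, 17, 4 and 227 usable probes, and that of amino acid metabolism includes 15 probes whose names the rule leaves out. Oxidative phosphorylation held 1 of 192, lipid metabolism 1 of 65, carbohydrate metabolism 2 of 86, detoxification 3 of 75, proteasome and proteases 1 of 122, transcription factors and signalling 3 of 375, and cytoskeleton and adhesion 3 of 185. Over all usable probes 1.6% were members. At that share the shorter of these lists would hold few members or none, so a low count there does not show absence.

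In the authors' deposited table, 198 of the 203 members have a ratio at stage 46, and all 198 are over 1, from 1.55 to 7.26 with a median of 1.87. The authors' deposited table gives a median of 0.714 for 198 members at stage 39 and of 0.886 for 166 members at stage 30, against 0.802 and 0.975 over all its probes. It was made from the same arrays, so it is not a separate observation, and its centring is not stated.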

How the data were processed

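The authors hybridised labelled cDNA of anterior (Cy5) and posterior (Cy3) endoderm to spotted arrays, per the labels. The deposited scanner files hold the median foreground and background intensity per spot and channel, the percent of saturated pixels and a flag score, none normalised. The deposited table of ratios, linear and with duplicate arrays condensed by the authors in GeneData software, per the labels, has no version given in the sources used here and served as a description. Log2 ratios were computed here from the deposited intensities, as in the report. Members, name lists and role groups were chosen with earlier results of these data known, and the role groups after values were seen.

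Mean levels were the mean log2 intensity of both channels after normexp (offset 50) and quantile normalisation between arrays. Probes over 2 background SDs on at least 2 arrays were tested with limma 3.58.1 (R 4.3.3), 1 mean per stage, 3 residual degrees of freedom, two-sided, Benjamini-Hochberg adjusted over all tested probes, at 0.05. The fit was tested on simulated data. P-values measure the spread between hybridisations. Each channel's level is this mean plus or minus a part of the ratio of the same normexp intensities, centred on the array's median. For dim probes this ratio can differ from the plain-subtracted ratio that the rule uses. The named members are the 30 usable names with the highest ratio at stage 46, the 5 probes on either side of the limit, and the 5 largest rises and falls between stages 30 and 46; other members were named as examples of their role group after values were seen. Of 3254 annotation accessions, 0 matched the gene table, so no genome position or sequence is given. The arrays' letters, taken from file names and not from labels, do not pair them: the differences between A and B correlated between stages at -0.25, -0.12 and 0.14. Alternatives were plain or no background subtraction, median or cyclic loess scaling, no filter on dim probes, a replicate block, other limits, and leaving out each array.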

Additional observations from a re-analysis of the deposited data

Results flagged for a closer look

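Of the 203 members, 136 had a log2 ratio below 0 on both stage 30 arrays and above 0 on both stage 46 arrays, so the sign of the centred ratio was opposite between the arrays of these stages. The sign is relative to the median of each array and not to equal signals in both channels. Likewise 136 were below 0 on both stage 39 arrays and above 0 on both stage 46 arrays. Each is 67.0% of the members, against 16.4% and 14.4% of the usable probes. Every member is above 0 at stage 46 by the rule, so these shares of usable probes are not alike. Without the condition at stage 46, 41.1% of the usable probes were below 0 on both stage 30 arrays and 45.5% on both stage 39 arrays. The difference between stages was not tested, and the side at stage 46 is fixed by the rule, as is the upper limit at the earlier stages.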

How the results depend on the processing

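Other ratio limits or background methods gave 146 to 210 members (203 as reported), except that a limit of 1 on both stage 46 arrays left 77. Leaving out each array in turn gave 212 to 276 members, with 199 to 202 shared. Leaving out an array removes a condition of the rule, so a larger count and near-complete sharing are built in. They do not show that the set of members is stable. With loess within each array, 167 of the 203 were still over 0.7 on both stage 46 arrays and all 203 were above 0 (lowest mean 0.54, median 0.91). After loess not every member stayed under 0.4 on the earlier arrays. At stage 39 annexin I on XL086i02 was at 0.58 and 0.47, and XL094b11 at 0.55 and 0.43. XL057f04, the synaptic vesicle GTP-binding protein annotation, was at 0.36 and 0.48 there. Of the stage tests, members higher at stage 46 than at stage 39 (17) numbered 6 with median scaling and 9 without the filter on dim probes. With a replicate block on the array letters, which do not pair the arrays, counts were 7 higher and 3 lower (stage 46 against 30), 1 higher (46 against 39), and 1 higher and 3 lower (39 against 30). Without each replicate in turn the counts ranged from 1 to 18 and 2 to 9 (46 against 30, higher and lower), 0 to 28 and 0 to 2 (46 against 39), and 0 to 14 and 0 to 19 (39 against 30). No tested call, count or named ratio was reversed in the alternatives run. Single calls numbered 27 (46 against 30), 17 (46 against 39) and 17 (39 against 30). Of these, 19, 6 and 15 were kept in all 6 processing alternatives, and 10, 1 and 4 with the replicate block. The tally of repeats that follows leaves out some of the calls. Repeats were counted for 45 of these calls, and 217 of the 585 repeats lost significance. Directions of the group medians were the same under median scaling and cyclic loess, except the mean of X-box binding protein from stage 30 to 46 (0.07, then -0.05 with median scaling), its anterior level from stage 30 to 39 (0.05, then -0.05 with cyclic loess), the posterior level of the dehydrogenases from stage 30 to 46 (0.07, then -0.04 with median scaling) and the mean of complement and pentraxin from stage 30 to 46 (0.10, then -0.01 with median scaling). Few arrays and the spread between arrays A and B limit the precision. The median absolute difference between them over probes was largest at stage 30, at 0.41 in mean log2 intensity.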

Other observations

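Members were found together in the same well of consecutive library plates. Of 152 members whose neighbouring plate had a usable probe in that well, 11 had a member there, and these pairs hold 21 members. At 2, 3, 4 and 5 plates apart there were 4, 2, 2 and 0 such pairs. The correlation of the stage 46 ratio across all 8527 pairs of usable probes on consecutive plates was 0.207, against 0.140 to 0.159 at greater distances, given as a description. In 4 pairs the annotations are the same (IgG Fc-binding protein, inosine monophosphate dehydrogenase, signal recognition particle and a mouse sequence). In others they differ, as for H,K-ATPase with pentraxin and for an IgG Fc-binding protein probe with lipin 2, or the second has no match, as for creatine kinase, myosin and desmoyokin. What these pairs share beyond the well was not tested.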
